A study of Mus musculus with 12 samples.

Results

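Sphingolipids begin with serine. Serine palmitoyltransferase, an enzyme of the endoplasmic reticulum, joins serine to palmitoyl-CoA, and reduction, acylation and desaturation of the product give ceramide, from which sphingomyelin and glycosphingolipids are made. The liver both uses these lipids in its membranes and exports them on lipoproteins. The genes described here are the 10 that carry this route: Sptlc1, Sptlc2 and Sptlc3 for the large subunits of serine palmitoyltransferase, Sptssa for a small subunit, Kdsr for the reductase, Cers2, Cers4, Cers5 and Cers6 for ceramide synthases, and Degs1 for the desaturase. They were taken by name, with earlier results of these data known. All 10 were on the array, with 12 probes among the 32524 genes and unnamed design identifiers it holds. Of the 10, 8 passed the filter on dim probes. That filter left 16915 genes and identifiers for testing, 12525 of them with a gene symbol, and all 16915 are counted as genes below.

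Liver RNA was hybridized to 12 Agilent arrays in 1 color, each with the RNA of a single mouse, from 6 LKO mice (Alb+/Cre;Phgdh flox/flox) and 6 littermate Floxed mice (Phgdh flox/flox), all male C57BL/6 animals of 30 weeks on chow with 20% casein. Phgdh encodes the first enzyme of serine synthesis from a glycolytic intermediate. The comparison therefore asks whether the genes that consume serine for sphingolipids differed when hepatocytes had lost an enzyme that makes it. Cre was driven by the albumin promoter, so other liver cells keep Phgdh, and because the Floxed mice carried no Cre, Cre and the deletion cannot be told apart. In bulk liver, fewer cells of a type and less RNA per cell cannot be told apart either. Of the 3 slides, the first carried Floxed mice 1 to 4 and the third carried LKO mice 3 to 6. Slide 2, with Floxed mice 5 and 6 beside LKO mice 1 and 2, alone compares the genotypes within a slide.

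Values are log2 intensities after quantile normalization over the 12 arrays, and differences are LKO minus Floxed on that scale. Between 21614 and 24252 of 39429 probes were well above background on an array, and the 75th percentile of array intensity was 258 to 473 for Floxed and 239 to 427 for LKO mice. All 8 hepatocyte markers examined (Alb and Hnf4a among them) were well above background on every array. Phgdh itself is given by its probe that passed the filter on dim probes. It ranged from 4.81 to 5.50 in Floxed mice (median 5.17) and from 4.23 to 5.30 in LKO mice (median 4.57). LKO mice 3 to 6, at 4.66, 4.23, 4.47 and 4.46, lay below all Floxed mice, while LKO mice 1 and 2, at 5.07 and 5.30, lay inside the Floxed range. The difference was -0.48 ± 0.18 (SE, n = 6 per genotype, limma unadjusted p = 0.0179, Benjamini-Hochberg adjusted p = 0.451). Phgdh was thus called lower by the study's array criterion, an unadjusted p below 0.05, and did not pass after adjustment. Within slide 2 the difference was -0.05. Where the Phgdh probes lie with respect to the exons removed by Cre was not analysed here, so these values were not used to check the labels. Without LKO mice 1 and 2, which these values singled out, the difference was -0.72, given with no test.

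The promoters of the alternative catalytic subunits are shown because Sptlc2 was well above background on all 12 arrays and Sptlc3 on 0 of 12. They are the 250 bases before the start of the gene in RefSeq (build GRCm38.p6), 5′ to 3′ on the strand of the gene, with each CG dinucleotide in capitals. Sptlc2 is at chr12:87388356-87388605 on the minus strand and Sptlc3 at chr2:139493663-139493912 on the plus strand.
Sptlc2: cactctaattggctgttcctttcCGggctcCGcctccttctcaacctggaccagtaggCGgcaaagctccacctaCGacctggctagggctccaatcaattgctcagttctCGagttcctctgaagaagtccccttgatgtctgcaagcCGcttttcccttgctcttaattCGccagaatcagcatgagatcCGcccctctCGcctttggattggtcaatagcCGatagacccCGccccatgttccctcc
Sptlc3: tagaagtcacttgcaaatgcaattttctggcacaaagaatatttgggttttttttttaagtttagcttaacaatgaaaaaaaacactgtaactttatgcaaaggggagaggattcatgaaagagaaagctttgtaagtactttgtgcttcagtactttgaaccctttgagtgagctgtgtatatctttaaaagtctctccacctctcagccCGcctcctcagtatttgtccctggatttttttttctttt
The Sptlc2 window holds 11 CG dinucleotides and the Sptlc3 window 1. Over 32851 such windows the median was 6, and 35.6% held at least 11 while 92.1% held at least 1. Of the 10 genes, 9 had a window with 11 or more, up to 28 for Sptssa, and Sptlc3 was the exception. Cers6, well above background in only 3 Floxed and 2 LKO mice, had 23. On both strands the Sptlc2 window has 3 copies of CCAAT (found in 33.8% of windows) and 2 of GGGCGG (in 32.7%), and the Sptlc3 window has neither. TATAAA, found in 12.4% of windows, is in neither of the pair. These letters are a description of the windows and were not tested against the array values.

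Serine palmitoyltransferase is a complex of SPTLC1 with SPTLC2 or SPTLC3 and a small subunit. None of the tested subunit genes differed between the genotypes by the criterion of the study, an unadjusted limma p below 0.05. Sptlc1, the partner that both catalytic subunits need, ranged from 8.50 to 9.03 in Floxed mice (median 8.67) and from 8.47 to 8.82 in LKO mice (median 8.69). Of the 6 LKO mice, 5 lay inside the Floxed range, and the difference was -0.04 ± 0.10 (SE), with a 95% interval from -0.26 to 0.18.

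Sptlc2, which carries the active site with SPTLC1 in most tissues, ranged from 5.65 to 6.04 in Floxed mice (median 5.78) and from 5.29 to 5.98 in LKO mice (median 5.67). LKO mice 3 and 6, at 5.35 and 5.29, were the lowest of the 12, but LKO mice 4 and 5, at 5.96 and 5.98, were exceeded only by Floxed mouse 4. The difference was -0.14 ± 0.13 (SE, 95% interval -0.41 to 0.14), and a second probe of the gene gave -0.05 ± 0.14 (SE). With arrays scaled to their 75th percentile the difference of the first probe was -0.05, and within slide 2 it was -0.07. Of the LKO mice, 3 lay below the Floxed range on the first probe and 0 on the second. Both probes of Sptlc3, whose product forms an enzyme that also accepts shorter acyl chains, were not well above background on any array, so no level or difference is given.

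Sptssa, a small subunit that raises the activity of the enzyme, ranged from 9.88 to 10.27 in Floxed mice (median 10.04) and from 9.90 to 10.50 in LKO mice (median 10.21). LKO mice 1, 4 and 5 lay above the Floxed range (10.47, 10.28 and 10.50) and the other 3 inside it. The difference of 0.14 ± 0.12 (SE, 95% interval -0.11 to 0.39) had the smallest p of the 8 tested genes (limma unadjusted p = 0.252, adjusted p = 0.888). Within slide 2 it was 0.02.

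**Figure D1:**
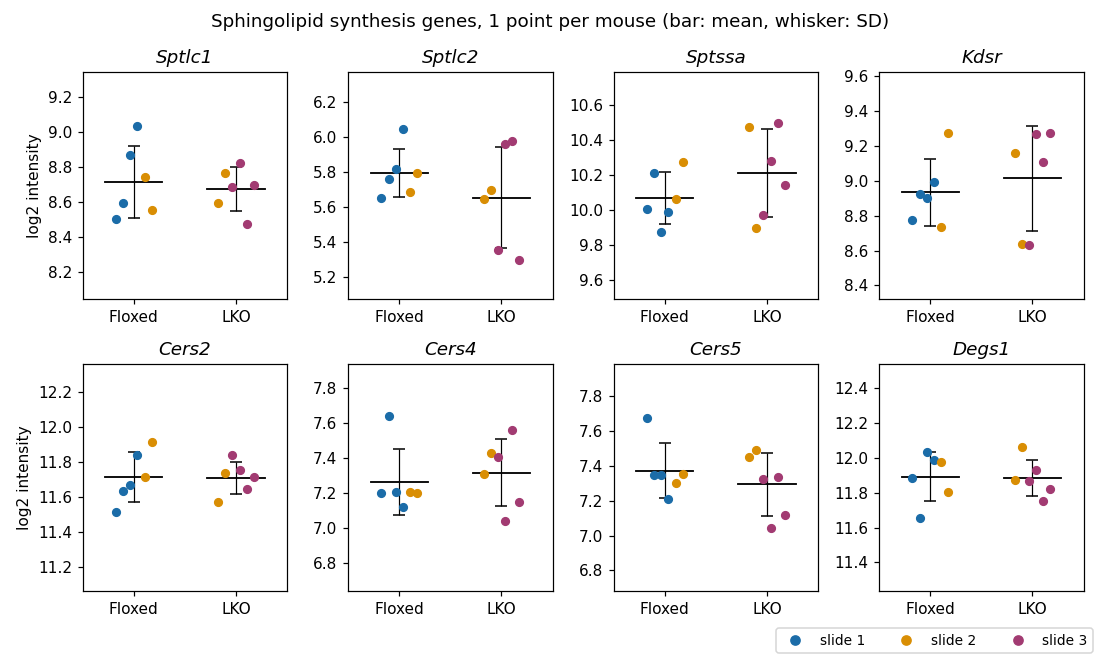
Log2 intensity of the 8 tested synthesis genes in every mouse, with Floxed and LKO mice side by side and the slide of each mouse marked. The vertical axis is log2 intensity after quantile normalization. Bars are means and whiskers the SD over 6 mice. In every panel the genotypes overlap, and for Cers2 all 6 LKO mice lie within the Floxed range. Over all tested genes, the groups did not overlap for 50 of 16915 (0.296%).

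Kdsr reduces the ketone that serine palmitoyltransferase leaves. It was read by 10 spots per array, and these agreed closely, with a standard deviation between spots of 0.0718 to 0.110 on each array and no spot marked as an outlier. The mice differed by more, with an SD of 0.19 in Floxed and 0.30 in LKO mice. Kdsr ranged from 8.73 to 9.27 in Floxed mice (median 8.91) and from 8.63 to 9.27 in LKO mice (median 9.13). LKO mice 2 and 3 (8.64 and 8.63) were the lowest of all, and LKO mice 1, 4, 5 and 6 lay between 9.11 and 9.27. The difference of 0.08 ± 0.14 (SE, 95% interval -0.22 to 0.38) was smaller than its error, and within slide 2 it was -0.11.

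The ceramide synthases attach a fatty acid to the sphingoid base, and each prefers its own chain lengths. Cers2, the main liver enzyme for very long chains, averaged 11.71 ± 0.14 (SD, n = 6) in Floxed mice and 11.71 ± 0.09 in LKO mice. Its difference of -0.0043 had a 95% interval from -0.18 to 0.17, which in fold is 0.883 to 1.13. Cers4, for long chains, ranged from 7.12 to 7.64 in Floxed mice (median 7.20) and from 7.04 to 7.56 in LKO mice (median 7.36). Of the Floxed mice, 5 lay between 7.12 and 7.20 and mouse 2 stood at 7.64, whereas the LKO mice were spread over most of that range. The difference was 0.05 ± 0.11 (SE, 95% interval -0.18 to 0.29).

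Cers5, which uses palmitoyl-CoA, ranged from 7.21 to 7.67 in Floxed mice (median 7.35) and from 7.04 to 7.49 in LKO mice (median 7.33). LKO mice 4 and 6, at 7.04 and 7.12, lay below the Floxed range. The difference was -0.08 ± 0.10 (SE, 95% interval -0.30 to 0.14), and within slide 2 it was 0.14. Cers6, the other synthase for palmitoyl-CoA, was well above background in 3 Floxed and 2 LKO mice and was not tested. The log2 ratio of Cers5 to Cers2 in each liver, which sets a palmitoyl enzyme against the very long chain enzyme within an array, differed between genotypes by -0.07 (Floxed -4.34 ± 0.28, LKO -4.42 ± 0.23, SD, n = 6; two-sided exact permutation p = 0.636, 0.636 after adjustment over 2 ratios). The ratio of Cers6 to Cers2 is not given, because Cers6 was dim on most arrays. A ratio of 2 probes carries the brightness of each probe, so its difference and not its level is the measurement.

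Degs1, which puts in the double bond that turns dihydroceramide into ceramide, varied little. It ranged from 11.66 to 12.03 in Floxed mice (median 11.93) and from 11.75 to 12.06 in LKO mice (median 11.87). The difference was -0.0061 ± 0.082 (SE, 95% interval -0.18 to 0.17), in fold 0.88 to 1.13. LKO mouse 2 alone lay above the Floxed range.

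Over the route as a whole, 0 of the 8 tested genes passed the unadjusted threshold, where 8.35% of all tested genes did (1413 of 16915). By direction, 0 of 8 were called higher and 0 of 8 lower, beside 4.92% of all tested genes called higher (832) and 3.43% called lower (581). After Benjamini-Hochberg adjustment 0 of the 16915 genes passed in limma, and the smallest adjusted p was 0.132. Of the 8 genes, 3 had a difference above 0 and 5 below it. Their median was -0.0052, beside -0.0035 over all tested genes, and the differences ran from -0.14 for Sptlc2 to 0.14 for Sptssa. The 95% intervals of all 8 lay between a fold of 0.751 and a fold of 1.31. A p above the threshold does not show equal expression, and these intervals give the size of difference the 12 arrays leave possible. The spread between mice of a genotype was below the median of all tested genes (SD 0.222) for 6 of the 8, and it ran from 0.121 for Cers2 to 0.253 for Kdsr.

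Within slide 2, where 2 LKO mice face 2 Floxed mice, the differences ran from -0.16 for Cers2 to 0.17 for Cers4. There 5 of 8 were above 0, and 4 of 8 had the same sign as over all mice. Sptlc1, Kdsr, Cers5 and Degs1 changed sign, each with an interval over all mice that contained 0. LKO mice 1 and 2 were also left out, having been singled out by their Phgdh values. The LKO mice that remained were all on slide 3 and no Floxed mouse was, so genotype and slide cannot be told apart there. Without LKO mice 1 and 2, 0 of the 8 genes were called, where 2172 of all 16915 were. The differences then ran from -0.17 for Cers5 to 0.15 for Sptssa, with 0.14 for Kdsr, and the ratio of Cers5 to Cers2 differed by -0.19 (exact permutation p = 0.281).

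**Figure D2:**
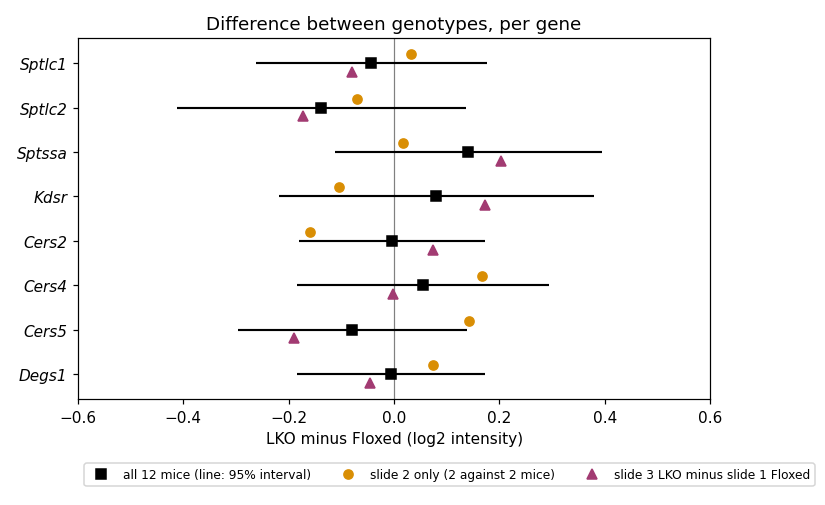
Difference in log2 intensity, LKO minus Floxed, for each tested synthesis gene, with its 95% interval from limma over 6 mice per genotype and beside it the difference within slide 2 (circles) and between the LKO mice of slide 3 and the Floxed mice of slide 1 (triangles). All 8 intervals contain 0, and all lie between -0.41 and 0.39.

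How the genes varied together was examined over the 12 mice after the mean of each genotype had been subtracted. Of 28 pairs, 14 correlated positively and 14 negatively, with Pearson r from -0.66 to 0.70. Sptlc1 and Degs1, the first and last enzymes of the route, had r = 0.70 (permutation p = 0.0219, adjusted p = 0.306 over 28 pairs; Spearman rho 0.74, permutation p = 0.0138, adjusted p = 0.25). Without the 2 mice farthest from the median of Sptlc1, r was 0.80. Sptssa and Degs1 had r = -0.66 (permutation p = 0.0128, adjusted p = 0.306; rho -0.66, permutation p = 0.0209), and -0.67 without the 2 farthest mice. Sptssa and Kdsr had r = 0.69 (permutation p = 0.0411, adjusted p = 0.313; rho 0.62, permutation p = 0.0644), and 0.72 without the 2 farthest mice. Sptlc1 and Sptssa had r = -0.55 (permutation p = 0.0447, adjusted p = 0.313) and rho = -0.58 (permutation p = 0.0379). Without the 2 mice farthest from the median of Sptlc1, their r was -0.74. These were the 4 of 28 pairs with an unadjusted permutation p below 0.05 by Pearson r. No pair passed after adjustment. Sptlc1 and Sptlc2, whose proteins form a dimer, had r = 0.23 (permutation p = 0.417; rho 0.29, permutation p = 0.329).

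The slides hold 4 arrays each, too few for an r within a slide, so the means of each slide and genotype were subtracted instead. Then 11 of 28 pairs were positive. By Pearson r none passed after adjustment, Sptlc1 and Degs1 having r = 0.77 (permutation p = 0.0242, adjusted p = 0.226; rho 0.80, permutation p = 0.0146). By Spearman rho, Sptlc1 and Cers5 passed (rho -0.80, permutation p = 0.00174, adjusted p = 0.0487), while their Pearson r of -0.76 did not (permutation p = 0.0184, adjusted p = 0.226) and fell to -0.52 without the 2 farthest mice. That relation therefore rests in part on those mice and on the measure used.

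Among 65 other genes of sphingolipid metabolism, 64 were on the array and 52 were tested. By the unadjusted threshold 2 were higher in LKO mice, 2 were lower and 48 were not called, which is 7.69% called beside 8.35% of all genes. Of the 52, 34 had a difference above 0 and 18 below it, with a median of 0.03. The ORMDL proteins hold serine palmitoyltransferase in check. Ormdl1, Ormdl2 and Ormdl3 differed by 0.04, 0.0043 and 0.10, and none was called. The other 4 genes of the same list (Sptssb, Cers1, Cers3 and Degs2) were not tested, Cers1 because no probe on the array bore its name.

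Of 11 tested genes that move ceramide or give it a head group, 1 was called lower. This was Ugcg, which makes glucosylceramide, the entry to the glycosphingolipids. It ranged from 6.67 to 7.01 in Floxed mice (median 6.82) and from 5.94 to 6.90 in LKO mice (median 6.36). LKO mice 2, 3, 5 and 6 (6.04, 6.17, 5.94 and 6.55) lay below all Floxed mice, and LKO mice 1 and 4 (6.90 and 6.80) lay inside the Floxed range. The difference was -0.44 ± 0.16 (SE), a fold of 0.737 with a 95% interval from 0.577 to 0.94, with a limma adjusted p of 0.451. It was -0.44 between slides 3 and 1, and also -0.44 within slide 2, where LKO mouse 2 was low and LKO mouse 1 was not. With slide as a fixed block, the difference of any gene is that within slide 2, since the other slides hold 1 genotype each. For Ugcg it did not pass the threshold in that fit (limma unadjusted p = 0.173). The genes for the other fates of ceramide in that list did not pass. Sgms1 and Sgms2, the sphingomyelin synthases, differed by -0.01 and 0.0061, and Cert1, which carries ceramide to the Golgi, by -0.06. B4galt5, which adds the next sugar to glucosylceramide, differed by -0.20 ± 0.16 (SE).

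Of 12 tested genes of ceramide and sphingosine 1-phosphate turnover, 2 were called higher. S1pr3, a receptor for sphingosine 1-phosphate, ranged from 6.34 to 6.58 in Floxed mice (median 6.48) and from 6.50 to 6.99 in LKO mice (median 6.80). LKO mice 3 to 6 (6.99, 6.71, 6.89 and 6.92) lay above all Floxed mice, and LKO mice 1 and 2 (6.50 and 6.52) lay inside the Floxed range. The difference was 0.28 ± 0.10 (SE, limma adjusted p = 0.420), 0.02 within slide 2 and 0.41 between slides 3 and 1. With slide as a fixed block it was 0.02 and did not pass (limma unadjusted p = 0.902). Spns2, an exporter of sphingosine 1-phosphate, ranged from 9.89 to 10.48 in Floxed mice (median 10.07) and from 9.98 to 10.88 in LKO mice (median 10.43). LKO mice 2, 3 and 5 lay above the Floxed range. Its difference was 0.34 ± 0.15 (SE, limma adjusted p = 0.578) and 0.06 within slide 2, and with slide as a fixed block it did not pass (limma unadjusted p = 0.809).

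Both of these genes are used by endothelial cells, and markers of liver sinusoidal endothelial cells were read beside them. Of 5 such markers (Stab2, Lyve1, Clec4g, Kdr and Pecam1), all well above background, 4 had a difference above 0. The 5 differences ran from -0.13 to 0.70, with a median of 0.065. Of the 5, 1 was called higher, beside 4.92% of all tested genes. This was Pecam1, by 0.70 ± 0.18 (SE, limma adjusted p = 0.273). Pecam1 ranged from 5.36 to 5.89 in Floxed mice, was 5.79 and 5.84 in LKO mice 1 and 2, and ranged from 6.39 to 6.78 in LKO mice 3 to 6. Its difference was 0.04 within slide 2 and 1.03 between slides 3 and 1. The mean deviation of the 5 markers from their averages ran from -0.33 to 0.17 among Floxed mice and from -0.09 to 0.45 among LKO mice. S1pr3 is also known from stellate cells, of whose 5 markers 0 were called and 2 had a difference above 0, with a mean deviation of -0.12 to 0.25 among Floxed and -0.38 to 0.34 among LKO mice. The part of either cell type in the values of S1pr3 and Spns2 was not tested.

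**Figure D3:**
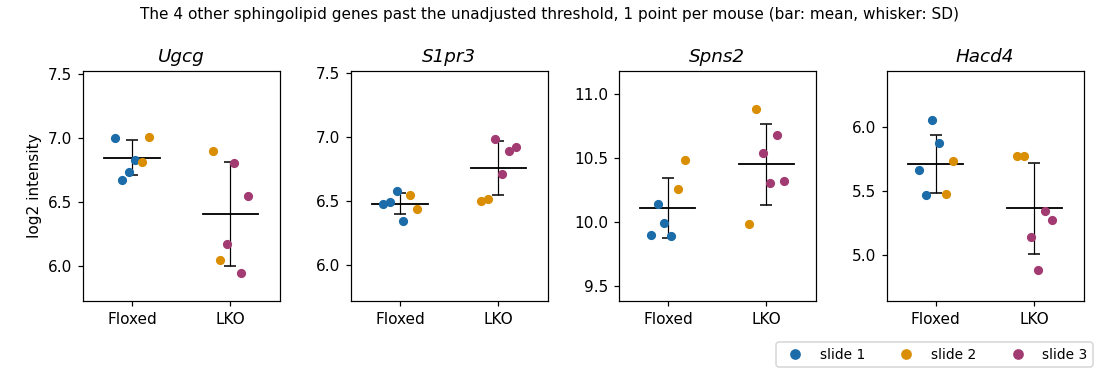
Log2 intensity of the 4 called genes among the other sphingolipid genes in every mouse, by genotype, with the slide marked. The vertical axis is log2 intensity after quantile normalization. Bars are means and whiskers the SD over 6 mice. Ugcg is below the Floxed range in 1 of 2 LKO mice on slide 2 and in 3 of 4 on slide 3, whereas S1pr3 and Hacd4 are shifted in the LKO mice of slide 3 and not in those of slide 2.

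Of 12 tested genes that supply or lengthen the acyl chains, 1 was called lower. Hacd4, a dehydratase of fatty acid elongation, ranged from 5.47 to 6.06 in Floxed mice (median 5.70) and from 4.89 to 5.78 in LKO mice (median 5.31). LKO mice 3 to 6 (5.14, 4.89, 5.35 and 5.28) lay below all Floxed mice, and LKO mice 1 and 2 (5.78 and 5.77) did not. The difference was -0.35 ± 0.16 (SE, limma adjusted p = 0.598), but 0.17 within slide 2, the opposite direction. Without LKO mice 1 and 2 it was -0.55, and with normexp background correction it was -0.10 and did not pass (limma unadjusted p = 0.172). Elovl1, the elongase that makes the very long chains used by Cers2, differed by 0.0074. Of 14 tested hydrolases that break sphingolipids down in lysosomes and membranes, 0 were called, and the difference of Psap, which encodes activators of these enzymes, was 0.18 ± 0.13 (SE).

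**Figure D4:**
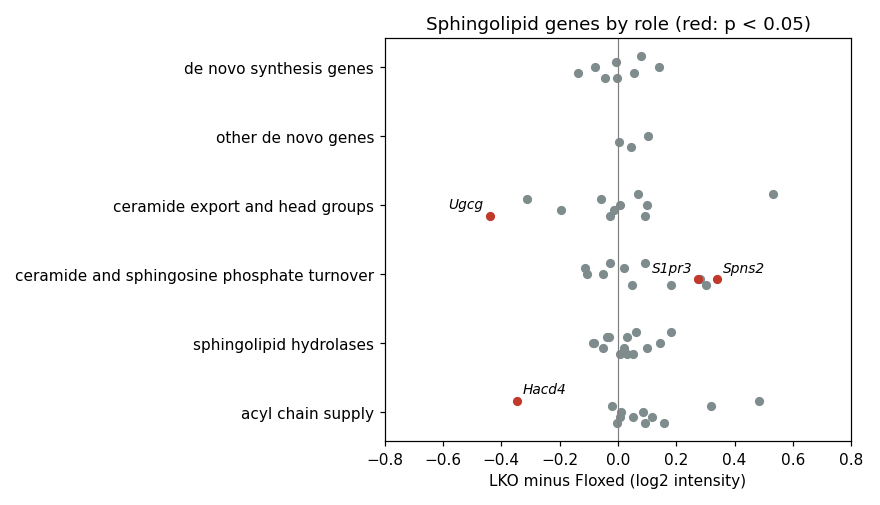
Difference in log2 intensity, LKO minus Floxed, for each tested gene of sphingolipid metabolism, 1 point per gene, arranged by role, with genes at an unadjusted limma p below 0.05 in red. The de novo synthesis genes lie between -0.14 and 0.14, and the 4 red genes are Ugcg, Hacd4, S1pr3 and Spns2.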

How the data were processed

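Liver RNA of 6 Floxed and 6 LKO mice was read on 12 single-color Agilent arrays. The authors deposited, per the file headers, the scanner intensity of each spot with flags (Agilent Feature Extraction, given as version 9.5.1.1 in the submitters' processing notes and 10.7.1.1 in the file header), and a table of intensity values per probe, quantile normalized and within 0.1 on the log2 scale of the values used here for 99.98% of entries. The methods name 1 RNA kit and the labels another. From the deposited processed intensity, 1377 control spots per array were left out and 43020 spots of 39429 probes were log2-transformed and quantile normalized. Spots marked as outliers (0.298%) were set missing, spots of a probe were averaged, and a filter retained the 20404 probes marked as well above background on each of the 12 arrays (at least 0.5 of the spots of a probe). The methods' detection p-value was not at hand. Probes were named by matching their RefSeq accession to a RefSeq gene table (GRCm38.p6), which named 94.2% of 28389 such probes, and a gene was represented by its brightest probe. Genotypes were compared with limma 3.58.1 (R 4.3.3, lmFit and eBayes, no covariates), and genes were called at an unadjusted p below 0.05, the array criterion of the study, with Benjamini-Hochberg adjustment over all 16915 genes. Ratios of members were compared by exact permutation over 924 arrangements, and pairs by 100000 permutations within genotype, a scheme chosen after a first run with free permutation had been seen. The third planned ratio, Sptlc3 to Sptlc2, was not run because Sptlc3 was not above background.

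The slide of each array was taken from the barcode that accompanies the deposited array data. The genes and lists were chosen with earlier results of these data known, and the promoter windows, their CG counts and motifs were examined after the array values had been seen. The named genes are the 10 synthesis genes, Phgdh and the called genes of the other lists, and further genes are named as background to their list. Alternatives covered scaling, background correction, the authors' table, filters, probe choice, slide, the replicate number, threshold, test and each array left out. With 0 synthesis genes called, the adjusted threshold and the minimum difference could only return 0. Looser filters and kept outlier spots left the differences of the 8 tested synthesis genes unchanged, as did averaging probes except for Sptlc2. Depth of an array is limited by signal over background, and the precision by the 6 arrays per genotype. The fitting code was tested on simulated data. Marker lists of macrophages, stellate cells, cholangiocytes, lymphocytes, red blood cells, pancreas acinar cells and adipocytes were also read, and none of their tested genes was called.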

Additional observations from a re-analysis of the deposited data

Results flagged for a closer look

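Among 28 groups of 6 mice examined, 2 held a mouse set apart from the rest by Dixon's criterion, where chance gives about 1.4. Cers4 stood at 7.64 in Floxed mouse 2, while the other Floxed mice lay between 7.12 and 7.20 (gap over range 0.836). Without that mouse the difference of Cers4 was 0.13. Cers5 stood at 7.67 in Floxed mouse 1, while the other Floxed mice lay between 7.21 and 7.35 (gap over range 0.691). Without that mouse the difference of Cers5 was -0.02.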

How the results depend on the processing

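The count of synthesis genes called was 0 under each of 27 alternatives. Of 200 recomputed values of these genes, some unchanged by the setting, the smallest unadjusted limma p was 0.0986, for Sptssa without LKO mouse 2. The largest absolute difference was 0.203. Over all genes, 1413 calls became 2791 with no filter on dim probes, 317 with slide as a fixed block, 512 on slide 2 only, 2172 without LKO mice 1 and 2 (571 after adjustment), 0 after adjustment and 88 with an absolute log2 difference of at least 1, and 1103 to 1837 with 1 array left out. Without LKO mice 1 and 2, genotype and slide cannot be told apart. Scaling to the 75th percentile split the calls into 1127 higher and 316 lower, beside 832 and 581. The 4 calls among the other sphingolipid genes became 2 with slide as a fixed block (Elovl3 and St3gal5), 1 on slide 2 only, 0 after adjustment, 0 with the minimum difference and 2 by the methods' t-test, and 2 to 4 with 1 array left out (2 without Floxed mouse 3 and without LKO mouse 5). They became 5 with slide as a random block and 6 without LKO mice 1 and 2, with Aldh3a2 and Elovl5 added.

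With slide as a fixed block and on slide 2 only, the differences are the same. Signs turned there for Sptlc1 (0.032), Kdsr (-0.105), Cers5 (0.141), Degs1 (0.073) and Hacd4 (0.169). The ratio of Cers5 to Cers2 turned too (0.302, exact permutation p = 0.333, the least 6 arrangements allow). Cers2 turned to 0.0441 with normexp, 0.0097 with slide as a random block and 0.0238 without LKO mice 1 and 2. With 1 array left out, Sptlc1 ran from -0.0855 to 0.0202, Cers2 from -0.044 to 0.0354, Degs1 from -0.0529 to 0.0221 and that ratio from -0.134 to 0.0254. Phgdh missed the threshold at -0.34 with 75th percentile scaling and at -0.0548 with slide as a fixed block and on slide 2 only, and ran from -0.60 to -0.38 with 1 array left out. Ugcg (-0.54 to -0.35) and S1pr3 (0.23 to 0.33) were called with each array left out. Spns2 lost its call without any 1 of 7 arrays (Floxed mice 1 to 4 and LKO mice 2, 3 and 5, lowest 0.25). Hacd4 did without any 1 of 8 (Floxed mice 1, 3, 4 and 6 and LKO mice 3 to 6, smallest size -0.25). Hacd4 also lost it with 75th percentile scaling (-0.24), normexp (-0.10), the mean of its probes (-0.24), the authors' table, no filter, the filter in 1 genotype, the replicate block and the methods' t-test. With normexp, differences shrank to -0.19 for Phgdh, -0.23 for Ugcg and 0.16 for S1pr3, all 3 still called. The cause was not tested.

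Same-numbered mice have consecutive animal numbers but no litter label, and lie on different slides. Their deviations correlated from -0.24 to 0.32, so they were not taken as pairs. Across slides, Phgdh was lower in the LKO mouse of 6 of 6 numbers. With the replicate block 1428 genes, 0 synthesis genes, 5 other sphingolipid genes and Phgdh (limma unadjusted p = 0.0033) were called. With all mice permuted freely, chosen after seeing the data, 0 of 28 pairs passed by Pearson r. With slide and genotype means then subtracted, Sptlc1 passed by Spearman rho with Cers5 and Degs1 (adjusted permutation p = 0.0423 for both).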
